A study of Mus musculus with 8 samples.

Results

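The 10 genes described here are *Hdac1*, *Hdac2*, *Hdac3*, *Hdac4*, *Hdac5*, *Hdac6*, *Hdac7*, *Hdac8*, *Hdac9* and *Hdac11*, which encode zinc-dependent histone deacetylases. They were taken by name, and all 10 were found among the 27179 genes of the expression table. *Hdac10* also has an entry there and is not among them. All 10 passed the filter on low values used for the test, 8 of them in 4 of 4 input libraries and *Hdac9* and *Hdac11* in 3 of 4.

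Histone deacetylases remove acetyl groups from the lysines of histones and of other proteins, and acetylated histones mark open, transcribed chromatin. The class I enzymes are nuclear and work inside corepressor complexes. HDAC1 and HDAC2 are the catalytic subunits of NuRD, SIN3 and CoREST, and HDAC3 is that of NCoR/SMRT. The class IIa enzymes (HDAC4, HDAC5, HDAC7 and HDAC9) deacetylate poorly themselves, bind MEF2 transcription factors and hold MEF2 targets silent in myoblasts. Kinases such as CaMK phosphorylate them, 14-3-3 proteins then bind them, and they leave the nucleus. HDAC6, of class IIb, is cytoplasmic and deacetylates tubulin, HSP90 and cortactin, and HDAC11 is the sole class IV enzyme.

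The cells were C2C12, an immortalized line of mouse myoblasts that fuse into myotubes when serum is withdrawn. Myoblasts in growth medium with 10% fetal bovine serum (GM) were compared with cells kept for 3 days in medium with 2% horse serum (3d DM), with no other treatment in either state. Each state had 2 input libraries of poly(A) RNA for expression and 2 libraries of RNA fragments immunoprecipitated with an antibody against N6-methyladenosine (m6A), a methylation of mRNA. The labels number the libraries without stating that they came from separate cultures, so the spread between the libraries of a state may be technical. In the input libraries, all 4 myoblast markers were present, 1 of them called higher in 3d DM and 1 lower: *Myod1* was between 1016 and 1713, *Myf5* was at 397 and 355 in GM and at 58.5 and 121 in 3d DM, and *Des* was at 12764 and 5945 in GM and at 21225 and 23528 in 3d DM. Markers of adipocytes and endothelial cells were at or near 0, with summed values of at most 0.7 and 1.5. Those of macrophages and blood summed to between 16.1 and 26.4. The fibroblast list was at 532 and 53.3 in GM and at 483 and 762 in 3d DM, and except in GM replicate 2 most of it was *Dcn*. Summed values of 6 myotube genes were 5114 and 1163 in GM, against 95442 and 132768 in 3d DM, so all 3d DM values were far above GM, while GM replicate 1 stood above GM replicate 2. All 6 myotube genes tested were called higher in 3d DM, and all 7 genes of dividing cells were called lower.

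The m6A peaks on these transcripts gave the sequences that the sections on m6A refer to. m6A is deposited at the DRACH motif, which reads A, G or T, then A or G, then AC, then A, C or T. Each sequence below is 29 bases of the sense strand from the GRCm38.p6 genome, with the motif in capitals. It shows the DRACH nearest to the centre of the gene's peak of highest median fold enrichment, as listed on the transcript chosen for that gene. The bases inside the peak in the most libraries were used, except for the *Hdac5* peak, where those 60 bases held no motif. They show where on each transcript a methylated adenosine is possible and do not show that this adenosine was modified. *Hdac3* peaks are not shown as sequence.
Hdac1 chr4:129517407-129517435, minus strand: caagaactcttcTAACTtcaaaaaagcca
Hdac2 chr10:37000382-37000410, plus strand: agacaaatccaaGGACAatagtggtgaga
Hdac4 chr1:91932767-91932795, minus strand: cagcttagtgagGGACAgagttggaagaa
Hdac5 chr11:102206671-102206699, minus strand: gaggagctggagAAACAgcggctggagca
Hdac7 chr15:97792823-97792851, minus strand: ggtttaggtctgGGACCaagaaagagtat
Hdac9 chr12:34431906-34431934, minus strand: atcagcaacaaaAGACActccaaccaatg
The motif adenosine lies in the coding sequence (CDS) of *Hdac1*, at −139 nt from the last coding base ahead of the stop codon, and in *Hdac2* at −58 nt. The *Hdac5* and *Hdac9* windows lie far upstream in the CDS, and the *Hdac4* and *Hdac7* windows lie in the 3′ untranslated region (3′UTR), at 569 and 863 nt past that base.

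**Figure D1:**
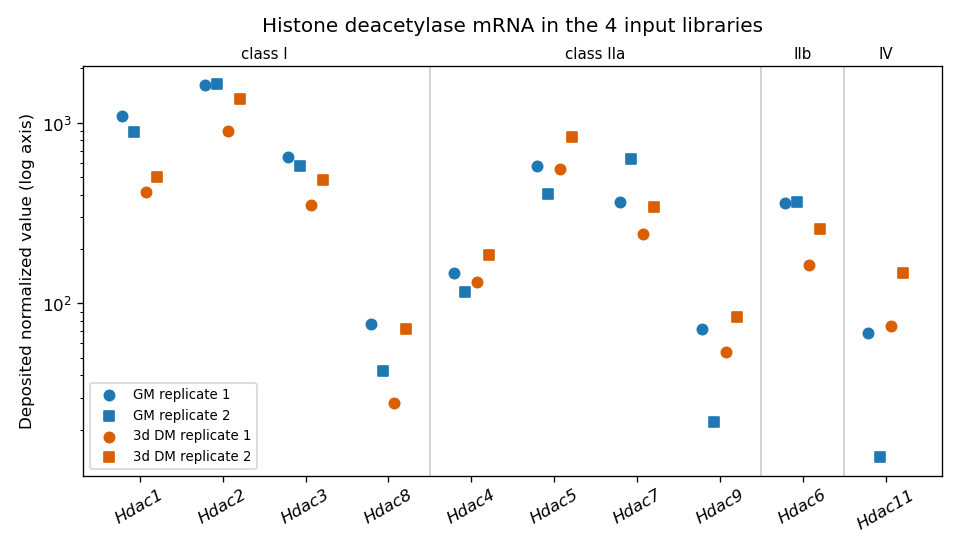
Deposited normalized value (log axis) of each histone deacetylase gene in the 2 GM (blue) and 2 3d DM (orange) input libraries, grouped by class. Both 3d DM libraries lie below both GM libraries for *Hdac1*, *Hdac2*, *Hdac3*, *Hdac6* and *Hdac7* and above them for *Hdac11*.

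The first question was how abundant each mRNA was. Levels were compared between genes as the normalized value per kilobase of merged exons, averaged over the 4 libraries. The class I mRNAs *Hdac1*, *Hdac2* and *Hdac3* led with levels of 355, 325 and 254 per kb, at the 85.3, 83.9 and 79.5 percentiles of the tested genes. *Hdac5*, *Hdac7* and *Hdac6* followed with 106, 79.7 and 69.1 per kb. *Hdac11*, *Hdac8*, *Hdac4* and *Hdac9* were the lowest with 28.8, 28.2, 17.9 and 5.44 per kb. The order was not the same within each state. In GM, *Hdac11* (15.6 per kb) was below *Hdac8* (30.8) by more than the larger standard deviation of the pair and close to *Hdac4* (16.2), and *Hdac7* (100.4) had a higher mean than *Hdac5* (87.2). The neighbours *Hdac5* and *Hdac7*, and *Hdac7* and *Hdac6*, differed there by less than that standard deviation. In 3d DM the order was less sharp: this held for *Hdac1* and *Hdac2*, *Hdac2* and *Hdac3*, *Hdac7* and *Hdac6*, *Hdac6* and *Hdac11*, *Hdac11* and *Hdac8*, and *Hdac8* and *Hdac4*. The place of *Hdac2* depends on its length. Per kb of the 2005-nt transcript on which its peaks are listed, rather than the 4232 nt of merged exons, its level was 685, above that of *Hdac1*. The low places of *Hdac4* and *Hdac9* depend on length too. Their merged exons span 8100 and 10687 nt, while peaks are also listed on transcripts of 3937 nt and of 1683 to 7940 nt. Other lengths were not tried for these genes, here or in the shares and class sums below.

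Expression was then compared between the states with limma on log2(value + 1), with Benjamini-Hochberg adjustment over 11406 tested genes. A gene was called at an adjusted p under 0.05. On the deposited values, the standard errors followed the trend over all genes and hardly each gene's own libraries. As deposited, the median tested gene was 0.22 lower in 3d DM on the log2 scale, so the change of each gene is also given after rescaling each library by its median ratio, which brought that median to 0.0055. In such bulk RNA, fewer cells with an mRNA and less of it per cell cannot be told apart. As deposited, 1 of the 10 genes was called higher in 3d DM (*Hdac11*) and 0 were called lower, against a background of 7.01% and 9.96% of all tested genes. At an unadjusted p under 0.05 there were 2 of 10, *Hdac11* and, lower, *Hdac1*, against 26.2% of all tested genes. After rescaling, 1 gene was called higher (*Hdac5*) and 1 lower (*Hdac1*), against 12% and 11.2% of tested genes. These counts are close to the background shares. In the deposited values, both 3d DM libraries lay below both GM libraries for 5 of the 10 genes and above them for 1, while 37% and 16.8% of all tested genes did so. After rescaling these counts were 4 and 4, against 33.1% and 34%.

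Of class I, *Hdac1* had the largest difference. The deposited value of *Hdac1* (Entrez Gene 433759, chr4:129516104-129542646 in mm10) was 1088 and 894 in GM, against 412 and 499 in 3d DM. The states did not overlap, with means of 991 ± 137 and 456 ± 61.6 (SD, n = 2). The log2 fold change was −1.12 ± 0.44 (SE), and limma gave an adjusted p of 0.0582, just outside the threshold. After rescaling it was −0.89 ± 0.17, and limma gave an adjusted p of 0.0183. With rescaled values and either 3d DM library left out, *Hdac1* was not called (adjusted p up to 0.198), although its log2 fold change stayed between −1.0 and −0.77. *Hdac1* has a near-identical processed pseudogene, *Gm10093*, with no entry in the table, so reads that fit both could count toward it.

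*Hdac2*, the close relative that shares the HDAC1 complexes, was at 1619 and 1633 in GM and at 896 and 1347 in 3d DM. Both 3d DM values were lower, but they differed from each other by more than the gap between the states. The log2 fold change was −0.57 ± 0.42 (limma, adjusted p = 0.437). *Hdac3*, the catalytic subunit of NCoR/SMRT, was at 649 and 580.0 in GM and at 351 and 485 in 3d DM. Its log2 fold change was also −0.57, with an SE of 0.44 (limma, adjusted p = 0.463). Relative to the median gene both were lower by about the same amount, −0.34 and −0.35, and neither was called after rescaling. *Hdac8*, a class I enzyme that is active without a corepressor complex, was at 76.9 and 42.2 in GM and at 27.9 and 71.8 in 3d DM. The states overlapped, and the sign of its change turned when GM replicate 1 or 3d DM replicate 1 was left out (from −0.34 to 0.088 and 0.33). *Hdac8* overlaps the antisense gene *Gm14858*, and the strand setting of the counting is not given in the sources used here.

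**Figure D2:**
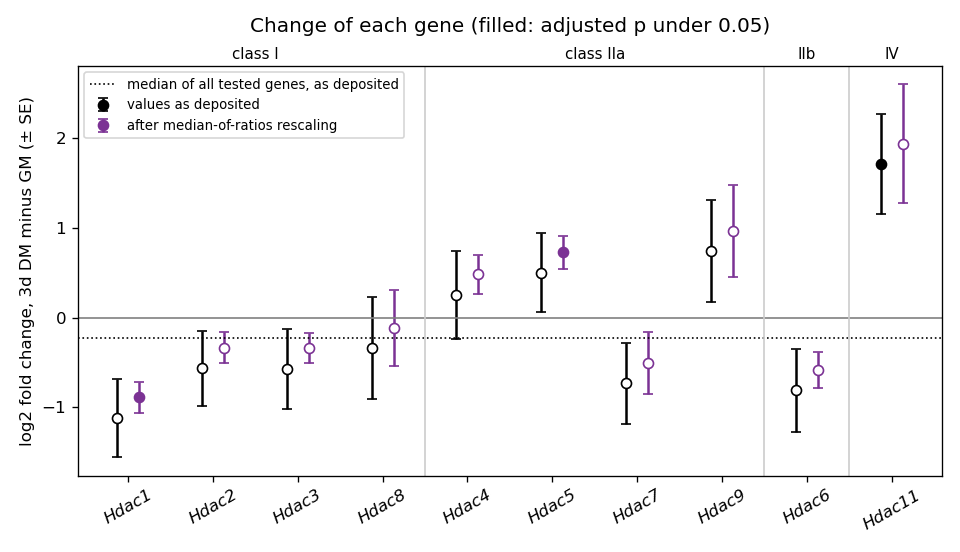
Log2 fold change (3d DM minus GM) with its standard error for each gene, from the deposited values (black) and after median-of-ratios rescaling (purple), 2 libraries per state. Filled symbols mark an adjusted p under 0.05. As deposited that is *Hdac11* (1.71), and after rescaling *Hdac1* (−0.89) and *Hdac5* (0.73).

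The class IIa genes differed in the sign of their change. *Hdac5* (Entrez Gene 15184, chr11:102195747-102230172), the most abundant of them per kb over the 4 libraries and in 3d DM, was at 578 and 402 in GM and at 556 and 839 in 3d DM. The deposited values overlapped, with a log2 fold change of 0.50 ± 0.44 (limma, adjusted p = 0.537). After rescaling they were 492 and 402 in GM, against 716 and 762 in 3d DM, and no longer overlapped. The rescaled log2 fold change was 0.73 ± 0.18, and limma gave an adjusted p of 0.039. It was not called when either 3d DM library was left out (adjusted p up to 0.294), with a log2 fold change of at least 0.59 throughout. *Hdac4*, whose mRNA is a target of the muscle microRNA miR-206, was at 147 and 115 in GM and at 132 and 184 in 3d DM. The log2 fold change was 0.26 ± 0.49 as deposited and 0.49 ± 0.22 rescaled, and *Hdac4* was not called on either scale (limma, adjusted p = 0.821 and 0.161).

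*Hdac7* was at 364 and 631 in GM and at 244 and 343 in 3d DM. GM replicate 2 was far above the other libraries, and after rescaling the other libraries lay between 309.8 and 313.6. The log2 fold change of *Hdac7* was −0.73 ± 0.45 (limma, adjusted p = 0.318). With rescaled values it was −0.50, and without GM replicate 2 it was 0.011. The 3′ end of *Hdac7* overlaps that of *Slc48a1* on the other strand. *Hdac9*, the scarcest of the 10 mRNAs per kb of merged exons, was at 71.8 and 22.1 in GM and at 54.1 and 84.5 in 3d DM. Its log2 fold change was 0.74 ± 0.57 (limma, adjusted p = 0.45) and turned to −0.085 without GM replicate 2. *Hdac9* and *Hdac11* were both several times lower in GM replicate 2 than in GM replicate 1, the library with the higher myotube gene values, and the part of that difference in their changes was not tested.

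*Hdac6*, the tubulin deacetylase, was at 359 and 363 in GM and at 163 and 259 in 3d DM. The states did not overlap on either scale. The log2 fold change was −0.81 ± 0.46 as deposited and −0.58 ± 0.20 rescaled, and limma gave adjusted p-values of 0.263 and 0.0923.

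*Hdac11*, the class IV gene, had the largest change of the 10 in the deposited values. It (Entrez Gene 232232, chr6:91156670-91174692) was at 68.8 and 14.1 in GM and at 75.1 and 148 in 3d DM. The 3d DM values were both higher, but the lower of them was only just above GM replicate 1. Its log2 fold change was 1.71 ± 0.56, a 3.28-fold rise, and limma gave an adjusted p of 0.0159. This standard error follows the trend over all genes and hardly the replicates of *Hdac11* itself. After rescaling, where the standard error was 0.66, the log2 fold change was 1.94 and limma gave an adjusted p of 0.0872. The call on the deposited values was lost with GM replicate 2 or either 3d DM library left out. Without GM replicate 2 the log2 fold change was 0.61 (0.95 with rescaled values), and without GM replicate 1 it was 2.82. Without 3d DM replicate 1 it was 2.20 and without replicate 2 it was 1.23, where fewer genes were called in all. The summed myotube genes differed between the GM libraries in the same direction, and their part in this result was not tested.

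Because the scaling of the libraries moved these changes, the make-up of the family was also described within each library, where scaling has no part. The measure was the share of a gene in the summed level per kb of the 10 mRNAs. It was chosen after the values were seen and was not tested. *Hdac1* made up 33.6% and 30.5% in GM, against 24.1% and 20.3% in 3d DM, with means of 32.0% ± 2.2 and 22.2% ± 2.7 (SD, n = 2). The share of *Hdac5* was 6.47% and 4.97% in GM, against 11.8% and 12.4% in 3d DM. *Hdac4* went from 1.14% and 0.990% to 1.95% and 1.89%, and *Hdac11* from 1.63% and 0.369% to 3.38% and 4.62%. The shares of *Hdac2* (24.1% to 26.8%), *Hdac3* (19.8% to 20.6%), *Hdac7* and *Hdac8* overlapped between the states. With the 2005-nt transcript as the length of *Hdac2*, its share was 40.1% to 43.6% and that of *Hdac1* 26.5% and 23.5% in GM, against 18.8% and 15.7% in 3d DM.

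By class, class I made up 80.2% and 78.6% in GM, against 71.7% and 69.6% in 3d DM. Class IIa made up 12.7% and 14.9% in GM, against 20.2% and 20.6% in 3d DM. The ratio of the summed class I to the summed class IIa level was thus 6.34 and 5.26 in GM, against 3.55 and 3.37 in 3d DM. With the 2005-nt length of *Hdac2* the ratio was 8.45 and 7.25 in GM, against 4.94 and 4.79 in 3d DM. As deposited, the class I sum was 1275 and 1132 per kb in GM, against 601 and 839 in 3d DM, without overlap, whereas the class IIa sum was 201 and 215 in GM, against 169 and 249 in 3d DM, with overlap. After rescaling the class I sum was 1084 and 1130.1 in GM, against 774 and 761 in 3d DM, and the class IIa sum was 171 and 215 in GM, against 218 and 226 in 3d DM. So the class I sum was lower in both 3d DM libraries on both scales, whereas the class IIa sum overlapped on the deposited scale alone. Per kb, the mean of *Hdac1* was above that of *Hdac5* in both states (486 and 87.2 in GM, 224 and 124 in 3d DM). The value of *Hdac5* over that of *Hdac1*, not divided by length, was 0.531 and 0.450 in GM, against 1.35 and 1.68 in 3d DM. Such ratios show that genes changed unequally, not which of them changed.

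**Figure D3:**
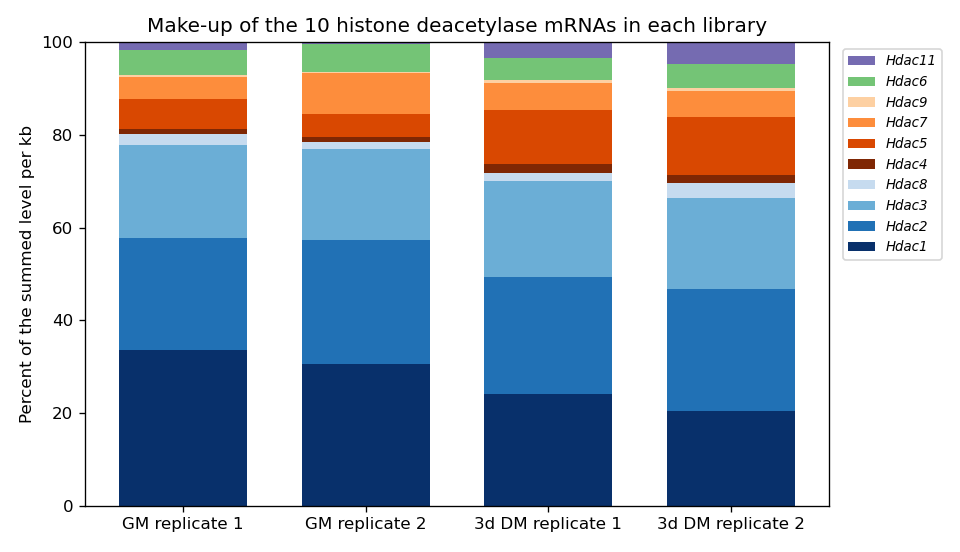
Share (percent) of each gene in the summed level per kb of the 10 histone deacetylase mRNAs, for each input library, with class I in blue, class IIa in orange, *Hdac6* in green and *Hdac11* in purple. The share of class I is 80.2% and 78.6% in GM, against 71.7% and 69.6% in 3d DM.

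The second question was which of these mRNAs carried m6A. The authors called peaks in each immunoprecipitated library against its own input, and fold enrichment is the ratio of immunoprecipitated over input RNA at the peak. The 4 lists held 50 lines on the 10 genes, 1 for every transcript with a peak, and lines whose exonic bases overlapped were merged into 10 distinct peaks. Of the 10 genes, 7 had a peak in at least 1 list, and *Hdac6*, *Hdac8* and *Hdac11* had none, where 75.1% of all tested genes had one and 24.9% had none. *Hdac1*, *Hdac2* and *Hdac5* had a peak in all 4 lists, as did 42% of tested genes. The GM lists held 5 and 6 distinct peaks on these genes and the 3d DM lists 7 and 5. A two-sided exact permutation test gave p = 1, and with 2 lists against 2 it cannot go below 0.33.

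Having a peak moved with expression. With all tested genes split by mean value into 4 bins of equal size, 52.7% of the lowest bin had a peak in at least 1 list and 87.2% of the highest. *Hdac8*, *Hdac9* and *Hdac11* lay in the lowest bin, and *Hdac6* lay in the bin above it, where 75.5% had a peak. The lists hold no read numbers, so the depth is unknown, and a gene without a line may have had too few reads for a peak to be called.

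*Hdac1* and *Hdac2* carried their peak at the same place, across the end of the CDS into the 3′UTR. The *Hdac1* peak (chr4:129516523-129517897, minus strand) ran from −331 to 89 nt relative to the last coding base over all lists, and 331 nt of it lay in all 4. Its fold enrichment was 3.33 and 2.59 in GM, against 3.93 and 3.7 in 3d DM. Both 3d DM values were above both GM values, which held for 9.13% of the 6055 peaks found in all 4 lists, whereas the reverse held for 21.8%. The difference in mean log2 fold enrichment was 0.38, against a median of −0.11 over those peaks, and the exact permutation test gave the smallest p it can, 0.333. In both 3d DM libraries, then, the mRNA value of *Hdac1* was lower and the enrichment at its peak higher than in GM, and no test of the latter could pass with 2 lists per state.

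The *Hdac2* peak (chr10:36998044-37001859, plus strand) ran from −295 to 303 nt relative to the last coding base. Its fold enrichment was 4.08 and 2.37 in GM, against 3.42 and 3.55 in 3d DM. The GM values lay on either side of the 3d DM values, and the difference of 0.16 on the log2 scale (exact permutation test, p = 1) turned to −0.23 without GM replicate 2. The peak of *Hdac2* held 31.7 DRACH motifs per kb and the rest of its transcript 20.6, whereas that of *Hdac1* held 19.0 and the rest of its transcript 24.7. Over all merged peaks the median was 22.1 per kb, with quartiles of 16.4 and 28.4, and 94.8% of the 18562 peaks searched held at least 1 motif.

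*Hdac3*, on chromosome 18, had a weak CDS peak in both GM lists and 3d DM replicate 2, with fold enrichments of 1.96, 1.84 and 2.07. A second, in the 3′UTR, was listed in GM replicate 2 alone with 3.26. Positions from the CDS end are not given because the transcript version listed for *Hdac3* differs from that of the annotation used here.

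*Hdac4* had the peak of highest fold enrichment among those seen in more than 1 list. It lay wholly in the 3′UTR (chr1:91932439-91933055, minus strand), 312 to 911 nt after the last coding base of the 8100-nt transcript. The fold enrichment was 8.46 and 18.8 in GM and 6.35 in 3d DM replicate 1, and 3d DM replicate 2 had no line. The lowest p that the authors' caller gave it was 7.08e-06 and 1.15e-05 in the GM lists and 3.55e-05 in 3d DM replicate 1. By p it was a weaker call than the *Hdac1* and *Hdac2* peaks, to which the caller gave at most 8.13e-08 in every list. Its 19 DRACH motifs over 600 nt gave 31.7 per kb, against 17.9 in the rest of the transcript.

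The *Hdac4* 3′UTR was also searched for miR-206, a choice made after the peak positions were seen. RefSeq gives the mature strand, from GRCm38.p6 chr1:20679055-20679076, plus strand, with the seed (bases 2 to 8) in capitals:
mmu-miR-206-3p: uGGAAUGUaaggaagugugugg
The reverse complement of that seed, ACATTCC, occurred 1 time in the 4568-nt 3′UTR of *Hdac4*, at 3284 to 3290 nt after the last coding base, and 0 times in the 3′UTRs of the other 9 genes. It lay outside the m6A peak. The same letters occurred in 10.0% of 20981 3′UTRs and in 31.7% of the 555 whose length was within 10% of that of *Hdac4*. MicroRNAs were not measured here, and a match of letters is not a site.

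*Hdac5* had a peak in all 4 lists, but not at 1 place. A CDS peak (chr11:102202144-102202623, minus strand) was listed in GM replicate 2 and both 3d DM libraries with fold enrichments of up to 2.53, 3.33 and 2.39. A second CDS peak further upstream (chr11:102206467-102206748) was listed in GM replicate 1 with 2.54 and in 3d DM replicate 1 with 2.78. Neither lay near the stop codon: on the 4852-nt transcript they ended at −1325 and −2523 nt from the last coding base. The first held 14.8 DRACH motifs per kb and the second 5.56, and the rest of the transcript held 13.1 and 13.5.

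The peaks of *Hdac7* and *Hdac9* were listed in 3d DM alone, as were those of 6.42% of tested genes, and each rested on 1 list. None of the 10 genes had peaks in GM lists alone, as 7.92% of tested genes did. *Hdac7* had a 3′UTR peak (chr15:97792769-97792846, minus strand) in 3d DM replicate 1, with a fold enrichment of up to 2.91. The line with that fold (chr15:97792769-97792828) did not reach the motif shown above, which was taken from a transcript with 2.47. *Hdac9* had a CDS peak with 3.44 in 3d DM replicate 1 (chr12:34373912-34374001, minus strand) and another with 10.0 in 3d DM replicate 2 (chr12:34431880-34431970). The latter came with a p of 0.00457, so the second-highest fold enrichment of the family was also one of its weakest calls. *Hdac7* and *Hdac9* shared no peak between libraries of 1 state.

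**Figure D4:**
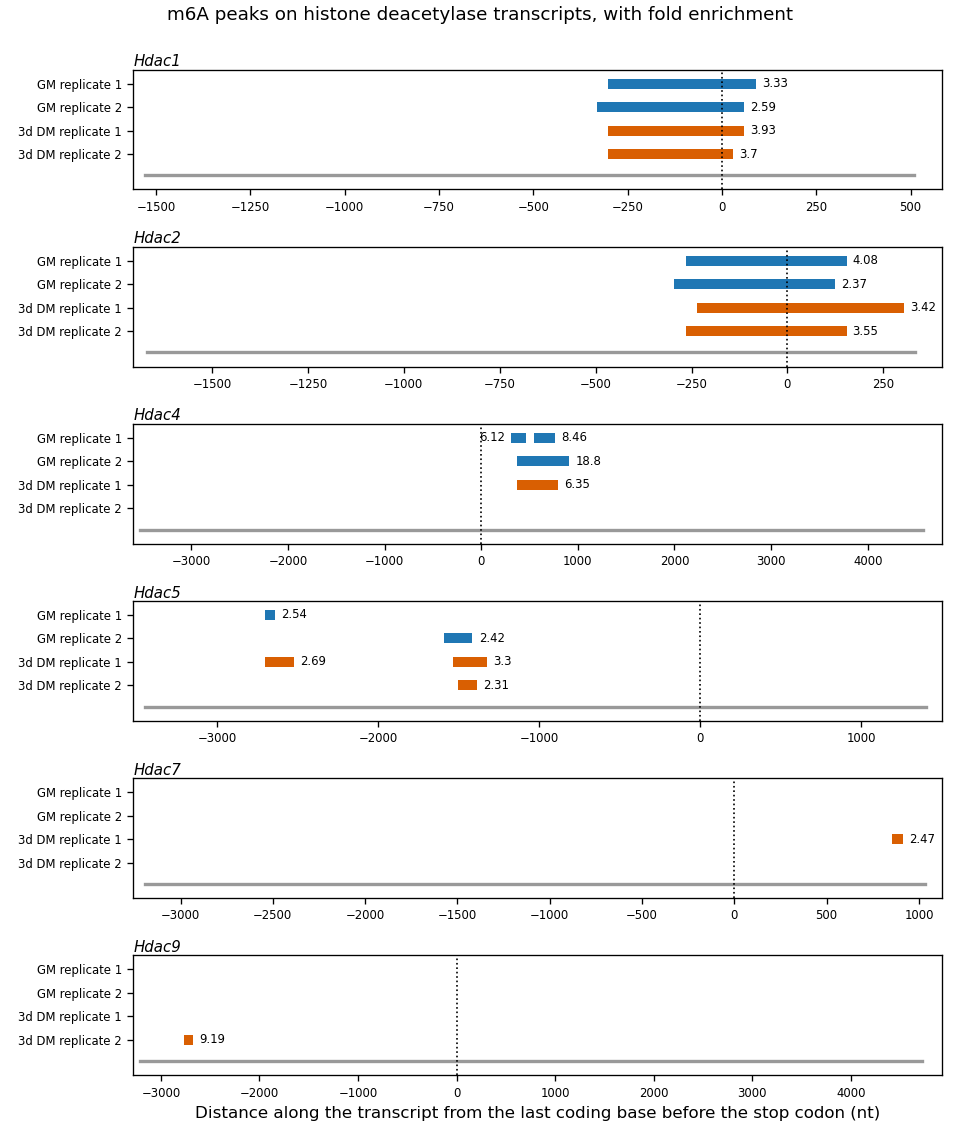
m6A peaks (bars) of each immunoprecipitated library along 1 transcript per gene (grey line), by distance in nt from the last coding base before the stop codon (dotted line), with the fold enrichment beside each bar. *Hdac1* and *Hdac2* have a bar across the line in all 4 libraries, and *Hdac4* has bars past it in 3 of 4. *Hdac3*, which could not be placed, and the *Hdac9* peak of 3d DM replicate 1, which is on another transcript, are left out.

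The third question was how the partners of these enzymes behaved, since class I enzymes act through complexes and class IIa enzymes through MEF2. The partner lists held 103 genes with an entry, of which 98 were tested. Of the 98, 6 were called higher and 8 lower in 3d DM with limma (6.12% and 8.16%, against 7.01% and 9.96% of all tested genes), and the median log2 fold change was −0.17, against −0.22. Of these 14 calls, 10 were in the list of class IIa partners. The count of partners called was lower with any library left out, as was that of all tested genes. After rescaling, 8 of the 98 were called higher and 12 lower, next to 12% and 11.2% of all tested genes.

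Among 26 tested class IIa partners and export signals, 6 (23.1%) were called higher and 4 (15.4%) lower, next to 7.01% and 9.96% of all tested genes. The list median was −0.06. The MEF2 factor *Mef2c*, itself induced as muscle differentiates, was at 81.0 and 68.2 in GM and at 2742 and 2182 in 3d DM. Its log2 fold change was 5.02 ± 0.45 (limma, adjusted p = 8.68e-27). After rescaling, *Mef2c* had a limma adjusted p of 0.0011. It stayed past the threshold with the other filters, pseudocounts and scalings, the block and each library left out, with adjusted p-values of at most 0.0347. *Mef2d* and *Mef2a* were also called higher, with log2 fold changes of 1.40 and 1.37, but missed the threshold under other settings. The calcium-calmodulin kinase genes *Camk2a* and *Camk2b*, whose products phosphorylate class IIa enzymes, rose with log2 fold changes of 5.05 and 2.87. Their relatives *Camk2d* and *Camk2g* were not called, with log2 fold changes of 0.07 and −0.04. *Camk2a* was at 65.5 and 18.1 in GM and at 1048 and 1335 in 3d DM. *Camk2b*, at 4.2 and 3.0 in GM, reached 31.7 and 33.0. It passed the filter value of 25.1 through its 3d DM libraries alone, so its call is not independent of the filter. The kinase gene *Sik1* rose by 2.02 on the log2 scale, from 464 and 306 to 1336 and 1754. The kinase genes *Sik2*, *Sik3*, *Prkd2*, *Prkd3*, *Mark2* and *Mark3* were not called, with log2 fold changes between −0.86 and 0.19. The 4 genes of this list called lower, named here after their values were seen, were the 14-3-3 genes *Ywhah* (−1.78) and *Ywhaq* (−1.35), the exportin gene *Xpo1* (−1.63) and the corepressor gene *Ctbp2* (−1.33). These 4 missed the threshold under other settings, with adjusted p-values of up to 0.23, 0.27, 0.243 and 0.45. *Camk2a*, *Camk2b* and *Sik1* each missed the threshold with at least 1 library left out or another setting, with adjusted p-values of up to 0.0520, 0.121 and 0.115.

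For subunits of the class I complexes, the background was 7.01% of all tested genes called higher and 9.96% lower. Of 12 tested NuRD genes, 0 were higher and 1 (8.33%) was lower, close to the background share of lower genes. *Rbbp7*, a histone-binding subunit, was at 2562 and 2564 in GM and at 948 and 1459 in 3d DM. Its log2 fold change was −1.12 (limma, adjusted p = 0.0441). Of 14 tested SIN3 genes, 0 were higher and 1 (7.14%) was lower. *Sinhcaf* (−1.39, limma, adjusted p = 0.0182) was at 415 and 589 in GM and at 147 and 242 in 3d DM. After rescaling, 1 NuRD gene was called higher and 2 lower, and 1 SIN3 gene higher and 3 lower. The background was then 12% higher and 11.2% lower. None of 9 CoREST, 5 MiDAC and MIER or 6 NCoR/SMRT genes was called as deposited, and 0 of them had an unadjusted p under 0.05, next to 26.2% of all tested genes. The NuRD list had the lowest median of the partner lists, −0.59 as deposited and −0.36 rescaled. *Rbbp7* and *Sinhcaf* both missed the threshold under other settings, with adjusted p-values of up to 0.472 and 0.547.

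For the next 3 lists too, the background was 7.01% of all tested genes called higher, 9.96% lower and 26.2% with an unadjusted p under 0.05. Lists this short cannot be told from those shares by counts of 0 or 1. Of the enzymes that work beside or against the family, 0 of 7 sirtuins, the NAD-dependent deacylases, was called in either direction by limma, and 0 had an unadjusted p under 0.05. Of 12 histone acetyltransferases, 1 was called lower: *Hat1*, which acetylates newly made histone H4, was at 394 and 494 in GM and at 76.4 and 156 in 3d DM, a log2 fold change of −2.0 ± 0.47 (limma, adjusted p = 0.000284). Of 7 genes of cytoplasmic acetylation tied to HDAC6, the chaperone gene *Hsp90aa1* fell by 1.52 on the log2 scale, from 10807 and 12716 to 3169 and 5302 (limma, adjusted p = 0.00184). *Hat1* and *Hsp90aa1* were called after rescaling too, with log2 fold changes of −1.78 and −1.29, but missed the threshold under other settings, with adjusted p-values of up to 0.12 and 0.171.

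m6A was common among the partners. Of the 98 tested, 62 (63.3%) had a peak in all 4 lists and 87 in at least 1, next to 42% and 75.1% of tested genes, but the partners were not matched to other genes by level. By list, the share with a peak in all 4 ran from 2 of 5 MiDAC and MIER genes and 3 of 7 sirtuins to 11 of 14 SIN3 and 5 of 6 NCoR/SMRT genes.

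**Figure D5:**
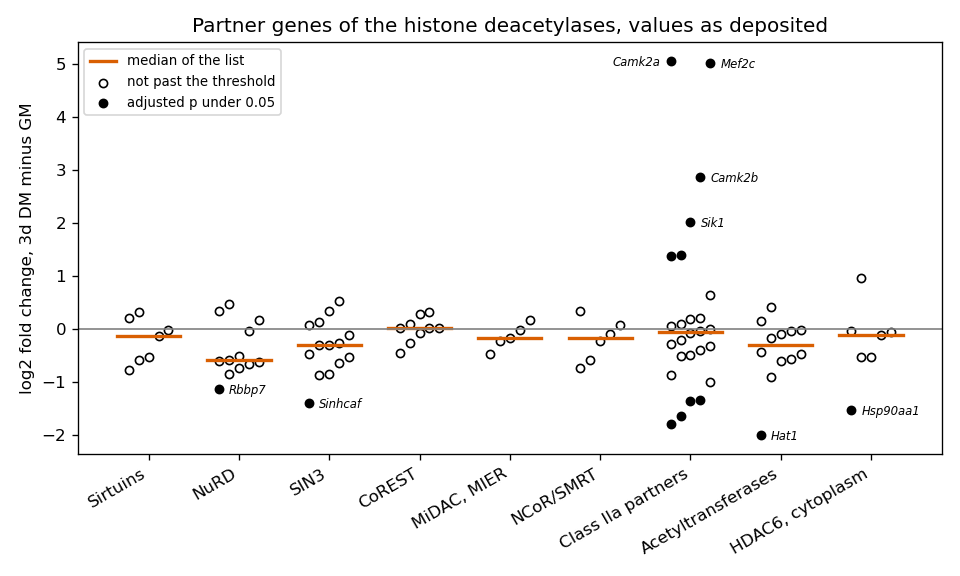
Log2 fold change (3d DM minus GM, values as deposited, 2 libraries per state) of the 98 tested partner genes by list, with the median of each list as an orange line and the genes with an adjusted p under 0.05 filled. The calls are mostly in the list of class IIa partners, where *Mef2c* and *Camk2a* lie near 5.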

How the data were processed

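MeRIP-seq and RNA-seq of C2C12 cells were taken from the deposited files, with 2 input and 2 immunoprecipitated libraries per state, grouped by the labels. Per the submitters' processing notes and the methods, the authors used the mm10 genome and the aligner HISAT2 (version 2.1.0), handled gene counts with edgeR and called peaks per library against its input with exomePeak. The deposited expression table holds a normalized signal, by its name scaled with TMM. Among 2171 genes with low values, the pair of replicate values recurred for 47.4% in GM and 55.0% in 3d DM but for 0.461% across states, as in quantile-adjusted pseudo-counts. A library's value may then depend on its replicate, and the spread between replicates may differ from that of the reads. Its columns share nearly 1 total, from which no reads could be recovered, so the depth is unknown and no counting error or detection limit is given. The deposited peak lists give a p-value and a fold (ratio) per transcript and no read numbers. The strand setting of the gene counting is not given in the sources used here.

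A gene entered the test where its value reached 25.1, which is 2 cpm of the column totals, in 2 or more of the 4 libraries. The test was limma (version 3.58.1, R 4.3.3, intensity trend, pseudocount of 1, two-sided), and the code was tested on simulated data. The largest entry took 24.4% to 41.3% of a column. Rescaling used median-of-ratios factors. Genes were matched by Entrez identifier. Peaks of 1 gene and strand were merged where exonic bases overlapped by at least 1 bp, and 95.5% of the lines matched a GENCODE M21 transcript. Lengths come from that annotation, gene coordinates from RefSeq and sequences from GRCm38.p6, whose primary chromosomes are those of mm10. Python 3.11.15, numpy 2.4.6, pandas 2.3.3, scipy 1.17.1 and matplotlib 3.10.9 were used.

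The 10 genes and the partner lists were chosen with earlier results of these data known. Of the partner lists, genes past the threshold were to be named, at most the 4 of largest change per list. For the class IIa partners, the other called genes and kinase genes not called were also named, after their values were seen. Alternatives were other filters and pseudocounts, 2 rescalings, no trend, the replicate number as a block, stricter peaks, other overlaps and each library left out. Combining rescaling with the block or with a library left out was chosen after seeing the data. No library was excluded.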

Additional observations from a re-analysis of the deposited data

How the results depend on the processing

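The number of genes of the family called higher in 3d DM, 1 in the main analysis, was 0 with the replicate block and 2 with the block and rescaling together. Of all 11406 tested genes, these settings called 800, 593 and 1802 higher. The family's count also varied with a library left out, on both scales. The number called lower, 0 in the main analysis, was 1 after median-of-ratios or trimmed-mean rescaling and 1 with the block and rescaling. Of all tested genes, 1136 were called lower in the main analysis and 1275, 1293 and 1768 with those settings. With rescaling and a library left out, the family's count varied too. Partner genes called, 14 in the main analysis, numbered 8 with the replicate block, 1 to 6 with a library left out, and, rescaled, 36 and 25 without GM replicate 1 or 2 and 5 and 6 without 3d DM replicate 1 or 2. Of all tested genes, 1936 were called in either direction in the main analysis and 1298 with the replicate block. With a library left out, the count over all tested genes moved the same way as that of the partners. It was lower on the deposited values. Rescaled, it was higher without either GM library and lower without either 3d DM library. So these shifts were not particular to the partners, and their cause was not tested. The filter, the pseudocount and the trend left the counts of the family as they were. With peaks of at least 4-fold enrichment, 0 genes had a peak in all 4 lists instead of 3, and with each list left out the number was 3 to 4.

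The log2 fold change turned with a library left out for *Hdac8* (−1.0 to 0.33, with 0.088 without GM replicate 1, and rescaled 0.20 without GM replicate 1 and 0.31 without 3d DM replicate 1), *Hdac9* (−0.085 to 1.57) and, rescaled, *Hdac7* (0.011 without GM replicate 2). Of 170 values of single genes under alternatives, 143 kept direction and side of the threshold. The replicate 1 minus replicate 2 differences of GM and of 3d DM correlated at 0.29 over genes, and the labels tie the numbers to no shared culture or day, so they are not taken as pairs. With the replicate block, the adjusted p was 0.0631 for *Hdac11* and 0.247 for *Hdac1*. The log2 differences of peak fold within a number were 0.24 and 0.51 for *Hdac1* and −0.25 and 0.58 for *Hdac2*, and a block cannot change their means. With 2 libraries per state and unknown depth, moderate changes of scarce mRNAs such as *Hdac8* and *Hdac9* cannot be told from replicate spread.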
